A study of Mus musculus with 30 samples.

Results

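The change between 6 and 18 h after oxaliplatin was measured in EL4 tumours of mice that drank water, by setting 5 arrays at 18 h against 5 arrays at 6 h. These are 10 of the 30 arrays of the series, and they were chosen by their titles, not by any measured value. EL4 is a mouse T cell lymphoma line, and oxaliplatin is a platinum drug that binds DNA. All mice are labelled WT, carried EL4 cells under the skin of the flank, and by the protocol received 10 mg per kg of the drug into the abdomen 7 days after the cells. Tumours are dated 0, 6 or 18 h after the injection, and whether mice of the 0 h group had been injected is not stated. Mice of the other arm had an antibiotic cocktail, of unstated composition, for 3 weeks before the tumour cells, and their arrays at 6 and 18 h (5 each) serve here for a second look at the same interval. Strain, sex and age of the mice are not given in the sources used here. The samples used here hold no arm without the drug at 6 or 18 h, so the action of the drug and the passing of time, with tumour growth and time of day, cannot be told apart. The labels do not say that the 5 arrays of a group come from separate mice. A p-value therefore sets a change against the spread of arrays within groups, which may be technical. That spread is pooled over the 6 groups of all 30 arrays, so it is not that of the water arrays alone. Values are log2 expression, 1 row for each of 19938 genes, and errors are standard errors of the model unless named as SD.

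The 10 arrays had no near-duplicates, and the smallest median difference between 2 arrays of a group was 0.0697. The median SD of a gene was 0.0799 at 6 h and 0.111 at 18 h, against 0.135 in antibiotic mice at 6 h. Cd3e, part of the T cell receptor complex and a marker of the labelled tumour type, read 11.18 to 11.30 at 6 h and 11.23 to 11.52 at 18 h. Levels of different probes cannot be compared, so this does not test the label. Markers of skin and muscle, which lie around such tumours, varied from array to array within groups. The mean of 16 keratinocyte genes, relative to the mean of all 30 arrays, was 1.116 on 6 h array 1 and lay between -0.641 and 0.191 on the other 6 h arrays, while the 18 h arrays lay between -0.441 and 0.33. For 19 skeletal muscle genes it lay between -0.62 and 0.179 at 6 h and between -0.357 and 0.289 at 18 h. In bulk tumours, fewer cells of a type and less RNA of a gene per cell cannot be told apart.

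Platinum drugs form adducts and crosslinks that block replication forks and transcription. Cells answer with checkpoint kinases and p53, whose targets halt the cell cycle or start cell death. Cells in S phase make large amounts of histone mRNA, which is lost when replication stops. Amino acid shortage and other stresses act through the factor ATF4, which drives amino acid transporters and tRNA synthetases, and sterol shortage acts through SREBP2, which drives cholesterol synthesis. Dying lymphoma cells are cleared by phagocytes, whose lysosomes digest them.

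Between 6 and 18 h most of the tested histone and cholesterol genes and about 1 in 3 of the DNA replication, DNA repair, ribosome assembly and amino acid genes fell in tumours of water mice. Members of the lysosomal and phagocyte lists, a few p53 targets and some mitotic regulators rose. Most changes were small. With limma, 1910 of 19938 genes (9.58%) passed at an adjusted p under 0.05, 623 higher (3.12%) and 1287 lower (6.46%) at 18 h. The median size of a passing change was 0.23 on the log2 scale, and 21 genes passed with a change over 1.5-fold, 14 of them higher. The range of passing changes ran from -0.79 to 1.07. Every 18 h array lay above every 6 h array for 720 genes (3.61%) and below for 1603 genes (8.04%). The split between the directions depends on the scaling of the arrays: after subtracting each array's median it was 383 higher and 1820 lower, and after quantile normalization 884 higher and 1437 lower. The count was 1072 without 18 h array 3, 1086 without 18 h array 1, 1164 without 6 h array 5 and 1211 without 6 h array 4.

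**Figure D1:**
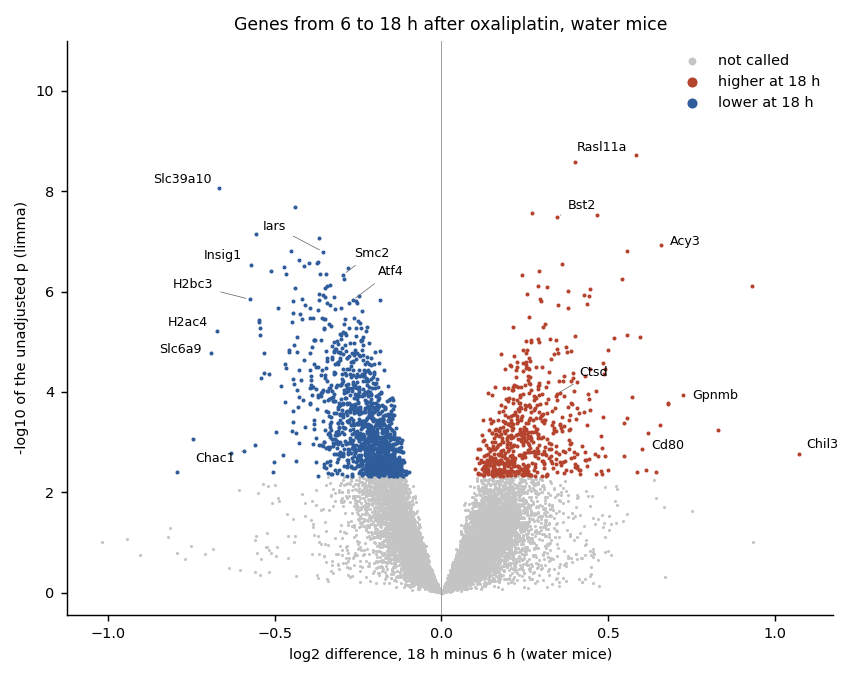
Each point is 1 of 19938 genes, with the log2 difference between 18 and 6 h in water mice on the horizontal axis and -log10 of limma's unadjusted p on the vertical axis. Red points (623 genes) passed as higher and blue points (1287 genes) as lower at 18 h, grey points did not pass, and the named genes are among those described in the text.

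Histone genes of S phase had the largest share of falling members among the 44 lists. Of 23 tested genes for replication-dependent histones, which package newly made DNA, 16 passed as lower and 0 as higher, against 6.46% of all genes, and the median difference of the 23 was -0.29 where that of all genes was 0.02. H2bc3, which encodes histone H2B, read 10.38, 10.38, 10.27, 10.32 and 10.09 on the 5 arrays at 6 h and 9.75, 9.70, 9.65, 9.77 and 9.69 at 18 h. The 18 h arrays all lay below the 6 h arrays, and H2bc3 fell by 0.58 ± 0.094 (adjusted p = 0.00054), a 1.49-fold drop. H2ac4, which encodes histone H2A, read 8.91, 8.93, 8.41, 8.89 and 8.83 at 6 h and 7.93, 8.09, 7.88, 8.38 and 8.32 at 18 h. One 6 h array (array 3) lay near the 18 h range without entering it, and the fall was 0.67 ± 0.12 (adjusted p = 0.0012). Linker histone genes also fell, H1f1 by 0.47 ± 0.11 and H1f3 by 0.44 ± 0.083, as did H4c3 (-0.35 ± 0.090), H3c4 (-0.30 ± 0.071) and H2ac15 (-0.21 ± 0.042). Among all genes the replication-dependent H3c15, which is not in the list, also passed (-0.63 ± 0.18), and its call was lost without 6 h array 4 or 5 or 18 h array 1 or 3. Copies of a histone gene are nearly alike in sequence, and probes can cross over between them, so the value of any 1 copy is uncertain. The list mean per array lay between -0.091 and 0.023 at 6 h and between -0.359 and -0.285 at 18 h.

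The promoters of H2bc3 and H2ac4 are shown because they match short elements held by most of this group, which was chosen by function and not by sequence. Both come from RefSeq (GRCm38.p6), run 5′ to 3′ from 250 bases before to 50 bases after the annotated start, and have the CCAAT box (CCAAT on either strand) and the TATA box (TATAAA on either strand) in capitals.
H2bc3 (chr13:23746484-23746783, plus strand): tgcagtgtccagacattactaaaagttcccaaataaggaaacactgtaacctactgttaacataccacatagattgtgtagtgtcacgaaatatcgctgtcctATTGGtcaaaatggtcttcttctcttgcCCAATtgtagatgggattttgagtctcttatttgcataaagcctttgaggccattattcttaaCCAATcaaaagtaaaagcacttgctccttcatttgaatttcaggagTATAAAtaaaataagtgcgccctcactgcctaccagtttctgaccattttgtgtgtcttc
H2ac4 (chr13:23750838-23751137, plus strand): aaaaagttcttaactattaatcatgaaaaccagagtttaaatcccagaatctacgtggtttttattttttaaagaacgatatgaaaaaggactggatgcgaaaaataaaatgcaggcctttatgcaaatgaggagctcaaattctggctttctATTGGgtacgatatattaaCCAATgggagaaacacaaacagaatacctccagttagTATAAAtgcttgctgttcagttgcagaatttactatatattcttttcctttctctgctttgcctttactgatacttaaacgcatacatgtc
Of the 19 tested histone genes found in the promoter table, 16 (84.2%) held CCAAT and 13 (68.4%) held TATAAA, against 41.1% and 15.7% of all 27025 genes in it. CCAAT was not particular to histone genes. It was in 15 of 15 cholesterol genes (100%) and in 27 of 46 genes of the amino acid, tRNA synthetase and integrated stress lists (58.7%). TATAAA was in 0 of these cholesterol genes and in 8 of the 46 (17.4%). Per window, 37.4% of 32851 promoters held CCAAT and 13.6% held TATAAA. The TATAAA match begins at -10 from the annotated start in H2bc3 and at -41 in H2ac4, and its use as a TATA box was not tested. These are matches of letters, and binding of a factor was not measured.

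Of 44 DNA replication genes 16 passed as lower and 0 as higher (6.46% and 3.12% of all genes), with a median of -0.11. Cdc6, which loads the replicative helicase at origins, read 8.72, 8.68, 8.63, 8.74 and 8.81 at 6 h and 8.40, 8.44, 8.33, 8.52 and 8.27 at 18 h. No 18 h array reached the 6 h range, and Cdc6 fell by 0.32 ± 0.062 (adjusted p = 0.0019). Ccne2, the cyclin E that starts S phase, fell by 0.38 ± 0.11, Tyms, which makes thymidylate, by 0.29 ± 0.062, Orc1, an origin recognition subunit, by 0.26 ± 0.059, and the polymerase subunits Pold2 and Pola1 by 0.23 ± 0.044 and 0.18 ± 0.056. Pcna, the sliding clamp, fell by 0.12 ± 0.038. The count rests on single arrays: it was 8 without 6 h array 1, 6 h array 5 or 18 h array 1, 10 without 6 h array 4 or 18 h array 5, and 6 without 18 h array 3.

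Of 36 DNA repair and checkpoint genes 12 passed as lower and 1 as higher, against 6.46% and 3.12% of all genes, with a median of -0.10. Brca1, which acts in homologous recombination, read 9.14, 8.96, 8.96, 8.98 and 9.16 at 6 h and 8.58, 8.67, 8.63, 8.82 and 8.80 at 18 h. The groups did not overlap, and Brca1 fell by 0.34 ± 0.067 (adjusted p = 0.0022). Mdc1, a scaffold at double-strand breaks, fell by 0.35 ± 0.073, Chek1, the kinase that holds cells with stalled forks, by 0.31 ± 0.071, Blm, a helicase, by 0.30 ± 0.062, Fancb, of the crosslink repair complex, by 0.29 ± 0.079, and Rad51ap1, a partner of the recombinase, by 0.32 ± 0.065. Rad54b, a recombination helper named for its difference between water and antibiotic mice, fell by 0.37 ± 0.055. The member that rose was Cdc25b, a phosphatase that opens mitosis (0.21 ± 0.052, adjusted p = 0.0093). The count of lower members was 8 without 6 h array 4, 6 h array 5 or 18 h array 1, and 6 without 18 h array 3.

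Chromosome organisers were examined after their values had been seen. Genes named Smc encode the ring-shaped ATPases of cohesin, condensin and the repair complex SMC5/6. Of 7 such genes 3 passed as lower and 0 as higher, against 6.46% and 3.12% of all genes. The 3 that passed were Smc2 (-0.29 ± 0.045), Smc4 (-0.21 ± 0.056) and Smc6 (-0.36 ± 0.055). Smc2, a condensin subunit, read 10.54, 10.44, 10.39, 10.49 and 10.56 at 6 h and 10.14, 10.24, 10.07, 10.23 and 10.24 at 18 h, so the groups lay apart. Without 18 h array 5 the count was 5, and without 18 h array 1 or 3 it was 2. Stag1, a cohesin subunit, fell by 0.35 ± 0.055 (adjusted p = 0.00045) and Fbxo5, an inhibitor of the anaphase-promoting complex, by 0.47 ± 0.071.

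Mitotic genes passed in both directions. Of 33 members 5 passed as higher and 3 as lower, against 3.12% and 6.46% of all genes, with a median of -0.04. Aurka, the kinase that builds the spindle poles, read 9.44, 9.54, 9.40, 9.44 and 9.48 at 6 h and 9.63, 9.78, 9.82, 9.78 and 9.59 at 18 h. Each 18 h array was above the 6 h arrays, and Aurka rose by 0.26 ± 0.056 (adjusted p = 0.0043). The 0 h arrays of water mice averaged 9.82, so the rise followed a drop of -0.36 ± 0.056 between 0 and 6 h, a value that shares the 6 h arrays. Cdc20, which activates the anaphase-promoting complex, rose by 0.21 ± 0.050, Ube2c, its ubiquitin-conjugating partner, by 0.22 ± 0.042, Cenpa, the centromeric histone, by 0.17 ± 0.046 and Kif20a, a motor of cell division, by 0.16 ± 0.049. For the same interval from 0 to 6 h these 4 read -0.28 ± 0.050, -0.14 ± 0.042, -0.23 ± 0.046 and -0.11 ± 0.049. Plk1, another mitotic kinase, read 0.13 ± 0.049 and did not pass (adjusted p = 0.094). The falling members were Ndc80 (-0.22 ± 0.059), Sgo1 (-0.20 ± 0.063) and Mad2l1 (-0.14 ± 0.045), which act at the kinetochore and centromere. Their count was 0 without 6 h array 4 or 18 h array 1, and the count of rising members was 3 without 18 h array 3.

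**Figure D2:**
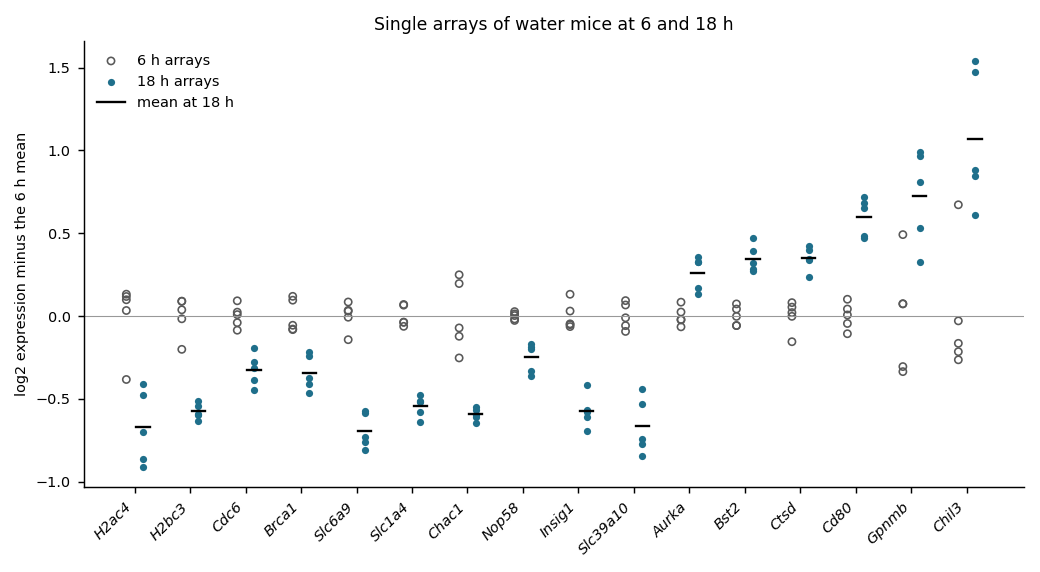
Points are the log2 values of the 16 named genes on each of the 5 arrays at 6 h (open) and the 5 arrays at 18 h (filled) in water mice, minus the gene's mean at 6 h, with a bar at the 18 h mean. The falling genes from H2ac4 to Slc39a10 stand to the left and the rising genes from Aurka to Chil3 to the right, and Chil3 and Gpnmb are the 2 whose 6 and 18 h arrays overlap.

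Amino acid transporters, synthesis enzymes and tRNA synthetases were among the genes that fell. Of 20 genes for amino acid transport and synthesis 7 passed as lower and 0 as higher, with a median of -0.15, and of 18 aminoacyl tRNA synthetases 7 passed as lower and 0 as higher, with a median of -0.15. Of all genes 6.46% passed as lower and 3.12% as higher. Slc6a9, a glycine transporter, read 9.61, 9.84, 9.75, 9.78 and 9.79 at 6 h and 9.18, 8.99, 9.17, 8.95 and 9.03 at 18 h. That is a 1.62-fold drop (-0.69 ± 0.13, adjusted p = 0.0019) with no overlap. Slc1a4, a transporter of alanine and serine, read 9.02, 9.12, 8.99, 9.02 and 9.12 at 6 h and 8.58, 8.48, 8.54, 8.54 and 8.41 at 18 h, and its -0.54 ± 0.097 came with little spread within either time. The cationic amino acid transporter Slc7a1 fell by 0.30 ± 0.073, the leucine transporter subunit Slc7a5 by 0.25 ± 0.068, and Slc38a2, a glutamine transporter, by 0.22 ± 0.052. Serine synthesis showed Psat1 at -0.17 ± 0.047. Without 6 h array 5 the count of 7 transport and synthesis genes was 4.

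Iars, which charges the isoleucine tRNA, read 11.68, 11.72, 11.67, 11.73 and 11.80 at 6 h and 11.32, 11.32, 11.34, 11.40 and 11.44 at 18 h. The groups lay apart, and the fall was 0.36 ± 0.051 (adjusted p = 0.00024). Cars, for cysteine, fell by 0.43 ± 0.063, Tars, for threonine, by 0.34 ± 0.068, Nars, for asparagine, by 0.29 ± 0.057 and Yars, for tyrosine, by 0.28 ± 0.049. Atf4 itself read 9.56, 9.50, 9.48, 9.48 and 9.49 at 6 h and 9.27, 9.17, 9.29, 9.20 and 9.25 at 18 h. It fell by 0.27 ± 0.044 (adjusted p = 0.00054), and the SD of its arrays was 0.03 at 6 h. Of the 21 genes of the integrated stress response list 3 (14.3%) passed as lower, Atf4, Chac1 and Gpt2, and 0 as higher. Of all genes 6.46% passed as lower and 3.12% as higher. Chac1, which degrades glutathione, read 8.46, 8.83, 8.51, 8.33 and 8.77 at 6 h and 8.01, 7.97, 8.03, 7.93 and 7.98 at 18 h, with the 18 h arrays below the 6 h arrays. It fell by 0.59 ± 0.17 (adjusted p = 0.025), and the call was lost without 6 h array 2, 6 h array 5 or 18 h array 1. Gpt2, which makes alanine, fell by 0.55 ± 0.096. Trib3, an ATF4 target that feeds back on it, read -0.25 ± 0.15 and did not pass (adjusted p = 0.29). The list count was 2 without 6 h array 2, 6 h array 5 or 18 h array 1.

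Promoters of 3 of these genes are shown because each matches the letters of the amino acid response element, to which ATF4 and its partners bind. They are RefSeq windows (GRCm38.p6), 5′ to 3′, with matches to TGATGNAAN on either strand in capitals.
Slc1a4 (chr11:20332664-20332963, minus strand): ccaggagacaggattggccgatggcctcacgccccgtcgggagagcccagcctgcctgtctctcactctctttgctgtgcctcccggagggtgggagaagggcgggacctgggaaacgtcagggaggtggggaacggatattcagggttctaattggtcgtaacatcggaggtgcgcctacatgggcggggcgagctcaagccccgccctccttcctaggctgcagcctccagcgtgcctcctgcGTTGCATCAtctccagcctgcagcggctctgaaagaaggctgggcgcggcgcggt
Chac1 (chr2:119350992-119351291, plus strand): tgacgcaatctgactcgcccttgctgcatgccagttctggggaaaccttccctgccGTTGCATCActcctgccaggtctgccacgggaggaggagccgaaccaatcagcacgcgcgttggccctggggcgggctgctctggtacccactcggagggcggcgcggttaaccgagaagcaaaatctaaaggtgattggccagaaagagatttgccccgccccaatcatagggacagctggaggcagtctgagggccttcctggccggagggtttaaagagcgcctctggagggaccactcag
Iars (chr13:49681880-49682179, plus strand): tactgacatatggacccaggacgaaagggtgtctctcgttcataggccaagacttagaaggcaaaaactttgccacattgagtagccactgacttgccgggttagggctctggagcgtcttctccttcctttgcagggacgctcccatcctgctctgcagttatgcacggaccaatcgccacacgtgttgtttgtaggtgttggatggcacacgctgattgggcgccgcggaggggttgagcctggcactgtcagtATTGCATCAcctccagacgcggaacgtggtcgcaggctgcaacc
The amino acid, tRNA synthetase and integrated stress lists together held 59 tested genes, and 46 of them were in the promoter table. Of these, 15 (32.6%) held the element, against 4.5% of all 27025 genes and 3.95% of 32851 windows. Among the 17 that passed as lower, 14 were in the table and 6 (42.9%) held it. The lists contain known targets of ATF4, so the share is no independent finding. All of these are matches of letters, and binding of ATF4 was not measured.

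Of 45 ribosome biogenesis genes 15 passed as lower and 0 as higher, against 6.46% and 3.12% of all genes, with a median of -0.11. Nop58, a core protein of the particles that guide methylation of ribosomal RNA, read 11.13, 11.10, 11.11, 11.14 and 11.16 at 6 h and 10.77, 10.94, 10.80, 10.93 and 10.96 at 18 h. The 6 h arrays lay close together above all 18 h arrays, and Nop58 fell by 0.25 ± 0.058 (adjusted p = 0.0079). Dkc1, the pseudouridine synthase of such particles, fell by 0.23 ± 0.063, Npm1, nucleophosmin, by 0.19 ± 0.047, Ncl, nucleolin, by 0.17 ± 0.046, Fbl, fibrillarin, by 0.16 ± 0.039 and Bysl, a factor of the small subunit, by 0.23 ± 0.054. The count was 8 without 6 h array 5, 7 without 18 h array 1 and 9 without 18 h array 3. Of 39 cytosolic ribosomal protein genes 0 passed by limma, with 7 higher and 1 lower at an unadjusted p under 0.05 and a median of 0.03. The largest difference was Rpl14 (-0.21 ± 0.11, adjusted p = 0.25). Of 24 Myc targets outside ribosome assembly 6 passed as lower and 0 as higher, among them the one-carbon enzymes Shmt2 (-0.35 ± 0.057) and Mthfd2 (-0.32 ± 0.082) and the cap-binding factor Eif4e (-0.22 ± 0.045). Myc itself read -0.12 ± 0.047 and did not pass (adjusted p = 0.12). Of 44 oxidative phosphorylation genes 0 passed, with 4 higher and 3 lower at an unadjusted p under 0.05.

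Cholesterol synthesis had the second largest share of falling members. Of 19 genes 10 passed as lower and 0 as higher, against 6.46% and 3.12% of all genes, with a median of -0.23. Insig1, which holds SREBP factors in the endoplasmic reticulum and is itself an SREBP target, read 9.95, 10.14, 9.96, 10.04 and 9.94 at 6 h and 9.44, 9.43, 9.31, 9.40 and 9.59 at 18 h. It fell by 0.57 ± 0.085 (adjusted p = 0.0003), with no overlap. Hmgcs1, an early enzyme of the pathway, read 9.82, 9.88, 9.81, 9.79 and 9.77 at 6 h and 9.26, 9.54, 9.34, 9.46 and 9.69 at 18 h. The arrays at 18 h were more spread than those at 6 h, yet all lay below them (-0.36 ± 0.079, adjusted p = 0.0052). Enzymes further along fell too: Sqle, squalene epoxidase, by 0.24 ± 0.058, Lss, which closes the sterol rings, by 0.34 ± 0.089, Cyp51 by 0.31 ± 0.085, Msmo1 by 0.39 ± 0.082, Sc5d by 0.23 ± 0.050 and Dhcr7, the last enzyme, by 0.30 ± 0.060. Without 18 h array 3 the count was 6. The letters of the sterol regulatory element (TCACNCCAC on either strand) were in 1 of the 15 cholesterol genes in the promoter table (6.67%). That gene was Hmgcs1, and 1.44% of all 27025 genes held the letters. Binding was not measured. Of 12 fatty acid synthesis genes 1 rose, Acss2 (0.29 ± 0.076), and 1 fell, Fads1 (-0.20 ± 0.058). The call of Acss2 was lost without 18 h array 2 and that of Fads1 without 6 h arrays 1, 2, 4 or 5 or 18 h arrays 3, 4 or 5.

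Slc39a10, a zinc importer of the plasma membrane, was among the largest falls. It read 10.63, 10.47, 10.51, 10.56 and 10.66 at 6 h and 10.13, 9.72, 9.80, 9.82 and 10.04 at 18 h. Every 18 h array was below the 6 h arrays, and the fall was 0.67 ± 0.082 (adjusted p = 5.8e-05). Trmt10a, a tRNA methyltransferase, fell by 0.56 ± 0.077 and Psip1, a chromatin-binding coactivator, by 0.47 ± 0.071. Mki67, the proliferation marker, fell by 0.13 ± 0.040, a call lost without 6 of the 10 arrays in turn (6 h arrays 3, 4 and 5 and 18 h arrays 1, 2 and 3). Genes named Zfp, mostly zinc finger repressors, were looked at after the values were seen. Of 347 such genes 54 passed as lower (15.6%) and 3 as higher (0.865%), against 6.46% and 3.12% of all genes, with a median of -0.08, and the lower count was between 27 and 36 without 6 h array 1, 6 h array 5, 18 h array 1 or 18 h array 3.

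Of 291 microRNA genes on the array 9 passed as lower (3.09%, below the 6.46% of all genes) and 0 as higher, so microRNA genes as a class did not stand out. They are described because members of the proliferation-linked miR-17-92 cluster and its host transcript were among the falling genes. Rows of the array read precursors or host transcripts, so they do not measure the mature RNA. Mature sequences of 4 of the 9 are shown, 5′ to 3′ from RefSeq (GRCm38.p6) with the seed, bases 2 to 8, in capitals. The first and second share a seed.
miR-19a-3p: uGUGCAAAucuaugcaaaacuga
miR-19b-3p: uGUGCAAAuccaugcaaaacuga
miR-18a-5p: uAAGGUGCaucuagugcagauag
miR-16-5p: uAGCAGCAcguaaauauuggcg
Mir19a read 8.59, 8.48, 8.42, 8.49 and 8.56 at 6 h and 7.57, 7.88, 7.98, 8.20 and 8.12 at 18 h, apart from each other. It fell by 0.56 ± 0.15 (adjusted p = 0.021), a call lost without 18 h array 1. Mir17hg, the host transcript of the miR-17-92 cluster that holds miR-18a and miR-19a, read 9.36, 9.32, 9.26, 9.39 and 9.44 at 6 h and 8.84, 8.96, 8.99, 9.08 and 8.94 at 18 h and fell by 0.39 ± 0.091 (adjusted p = 0.0071), with no overlap. Mir18 fell by 0.38 ± 0.11, Mir19b-2, in the related cluster on chromosome X, by 0.20 ± 0.056, and Mir16-2, which lies within Smc4, by 0.34 ± 0.094. These 3 lost their calls without 4 to 7 of the 10 arrays in turn. Mir421, also on chromosome X, read -0.75 ± 0.20 (adjusted p = 0.018), and its groups overlapped. Its call was lost without 6 h array 1 or 18 h arrays 1 or 3. The class count was between 3 and 5 without any 1 of 6 h arrays 1, 2, 4 and 5 and 18 h arrays 1, 2 and 3.

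Of 37 p53 targets 4 (10.8%) passed as higher and 0 as lower between 6 and 18 h, against 3.12% and 6.46% of all genes, with a median of 0.08. Between 0 and 6 h, with which this interval shares the 6 h arrays, 16 of the 37 had passed as higher and 0 as lower. Of all genes 1.11% passed there, 0.697% higher and 0.416% lower. Between 0 and 18 h 22 passed as higher and 0 as lower, where 6.18% and 7.94% of all genes did (14.1% in all). Mdm2, the ligase that degrades p53, read 11.23, 11.18, 11.17, 11.16 and 11.25 at 6 h and 11.18, 11.23, 11.34, 11.28 and 11.30 at 18 h. The groups overlapped, and the difference was 0.07 ± 0.076 (adjusted p = 0.61) after 0.58 ± 0.076 from 0 to 6 h. Trp53inp1, a p53-induced regulator of death and autophagy, read 0.21 ± 0.18 after 1.34 ± 0.18, Ccng1, cyclin G1, 0.12 ± 0.085 after 0.48 ± 0.085, Btg2, an antiproliferative factor, 0.17 ± 0.11 after 0.65 ± 0.11, and Fas, a death receptor, 0.35 ± 0.15 after 0.80 ± 0.15. None of these 5 passed from 6 to 18 h, and all 5 had passed as higher from 0 to 6 h. The 4 that passed as higher from 6 to 18 h were Cd80, Phlda3, Abhd4 and Ei24. Passing depends on the error as well as the size. Fas, at 0.35 ± 0.15, did not pass, while Abhd4 passed with a smaller difference. The error is pooled over all groups, and p53 targets varied more between antibiotic arrays. The SD of the list mean at 6 and 18 h was 0.031 and 0.043 in water mice, 0.125 and 0.129 in antibiotic mice. For Mdm2 the SD was 0.042 and 0.061 against 0.202 and 0.192, and for Cd80 0.08 and 0.115 against 0.397 and 0.498. Not passing therefore does not show that a target stayed level in water mice. The lost calls given below rest on the same error. Cd80, a costimulatory ligand, read 9.71, 9.65, 9.56, 9.61 and 9.50 at 6 h and 10.09, 10.08, 10.26, 10.32 and 10.29 at 18 h. It rose by 0.60 ± 0.17 (adjusted p = 0.024) with no overlap, and the call was lost without 6 h array 5 or 18 h array 3. Phlda3, an inhibitor of AKT signalling, rose by 0.34 ± 0.098, Abhd4, a lipase, by 0.27 ± 0.050 and Ei24, a protein of the endoplasmic reticulum, by 0.26 ± 0.071. Phlda3 lost its call without 6 h arrays 3 or 4 or 18 h arrays 1, 3 or 4, Ei24 without 6 h arrays 2 or 5, and without 6 h array 5 or 18 h array 3 the count was 2. Mdm4, a p53 inhibitor that is not in the list and was added after its values were seen, read 10.65, 10.53, 10.64, 10.67 and 10.58 at 6 h and 11.09, 11.08, 11.13, 11.24 and 11.13 at 18 h and rose by 0.52 ± 0.095 (adjusted p = 0.0015), with the groups apart.

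Lysosomal genes rose more often than any other listed group. Of 25 members 10 passed as higher and 0 as lower, against 3.12% and 6.46% of all genes, with a median of 0.17. Ctsd, an aspartic protease, read 11.38, 11.41, 11.35, 11.18 and 11.33 at 6 h and 11.75, 11.57, 11.68, 11.73 and 11.67 at 18 h. The groups lay apart, and Ctsd rose by 0.35 ± 0.077 (adjusted p = 0.0054), 1.27-fold. Other proteases rose with it, Ctsa by 0.39 ± 0.099, Ctsz by 0.28 ± 0.066 and Ctsb by 0.24 ± 0.064, as did Hexa, a subunit of hexosaminidase (0.34 ± 0.10), Psap, which activates sphingolipid hydrolases (0.28 ± 0.070), and Neu1, a sialidase (0.23 ± 0.052). The list mean per array lay between -0.063 and 0.093 at 6 h and between 0.163 and 0.263 at 18 h, and the count was 5 without 6 h array 4. Of 24 genes for the proton pump that acidifies lysosomes, grouped after their values were seen, 6 passed as higher and 0 as lower, and that count was between 1 and 4 without any 1 of the 10 arrays.

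Of 26 genes for phagocytosis, scavenger and Fc receptors 5 passed as higher and 0 as lower, with a median of 0.20, and of 13 macrophage markers 2 passed as higher, with a median of 0.19. Of all genes 3.12% passed as higher and 6.46% as lower. Cd68, a lysosomal glycoprotein of macrophages, read 10.18, 10.19, 10.17, 9.99 and 10.27 at 6 h and 10.55, 10.25, 10.55, 10.60 and 10.61 at 18 h. Array 2 at 18 h lay within the 6 h range and the other 4 above it, and Cd68 rose by 0.35 ± 0.10 (adjusted p = 0.027), a call lost without 6 h array 4 or 18 h arrays 1, 3, 4 or 5. Trem2, a receptor of lipid-handling macrophages, rose by 0.30 ± 0.068, Itgb2, the shared chain of leukocyte integrins, by 0.31 ± 0.077, Cd36, a scavenger receptor, by 0.61 ± 0.19 and Lyz2, lysozyme, by 0.44 ± 0.13. The call of Cd36 was lost without any array but 18 h array 2, and that of Lyz2 without 6 h arrays 1, 2, 4 or 5 or 18 h arrays 1, 2 or 3. Gpnmb, a glycoprotein of lipid-loaded macrophages, read 8.81, 9.23, 8.82, 8.44 and 8.40 at 6 h and 9.71, 9.07, 9.27, 9.73 and 9.55 at 18 h. One 6 h array (array 2) lay above the lowest 18 h array, and Gpnmb rose by 0.73 ± 0.16 (adjusted p = 0.0057). Slamf9, a surface receptor of myeloid cells, rose by 0.48 ± 0.12.

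The largest rise of all was in Chil3, a chitinase-like protein of alternatively activated macrophages and neutrophils. It read 5.94, 5.81, 5.76, 5.71 and 6.65 at 6 h and 7.45, 7.51, 6.59, 6.82 and 6.86 at 18 h. Array 5 at 6 h stood apart from the other 6 h arrays and above the lowest 18 h array. Chil3 rose by 1.07 ± 0.31 (adjusted p = 0.027), 2.10-fold, and the call was lost without any 1 of 6 h arrays 1 to 4 and 18 h arrays 1 and 2. Of the 12 genes of its list Il4ra, a chain of the interleukin 4 receptor, was the other that rose (0.25 ± 0.072), a call lost without 6 h arrays 1, 2 or 4 or 18 h arrays 1, 2 or 4. The count of 2 was 0 without 6 h arrays 1, 2 or 4 or 18 h array 1. The counts of this list and the next 2 stand against 3.12% of all genes higher and 6.46% lower. Of 16 neutrophil markers 0 passed by limma, with 5 higher and 0 lower at an unadjusted p under 0.05 and a median of 0.17, and of 10 dendritic cell markers 0 passed, also unadjusted. The mean of the macrophage markers lay between -0.159 and 0.175 at 6 h and between 0.047 and 0.467 at 18 h, so the arrays overlapped. The phagocytosis count was 3 without 6 h arrays 1, 3 or 5 or 18 h array 5, and 2 without 6 h array 4 or 18 h arrays 1, 3 or 4, and the macrophage marker count was 0 without 6 h array 4 or 18 h arrays 1 or 3 and 1 without 6 h arrays 1, 2 or 5 or 18 h arrays 2, 4 or 5. The part of macrophage number in the lysosomal and phagocyte values was not tested.

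Of 28 type I interferon response genes 3 (10.7%) passed as higher and 0 as lower, against 3.12% and 6.46% of all genes, with a median of 0.26. Bst2, which tethers budding virus to the cell, read 10.06, 10.09, 9.96, 10.02 and 9.96 at 6 h and 10.49, 10.30, 10.41, 10.34 and 10.29 at 18 h. The groups lay apart, and Bst2 rose by 0.35 ± 0.046 (adjusted p = 9.1e-05). Isg20, an exonuclease, rose by 0.57 ± 0.13 and Ifi27 by 0.29 ± 0.055. The list mean lay between -0.061 and 0.111 at 6 h and between 0.017 and 0.576 at 18 h, a wider spread than at 6 h. Of 27 inflammatory cytokine and NF-kB target genes 3 (11.1%) passed as higher. Tnf read 9.18, 9.31, 8.96, 9.03 and 9.23 at 6 h and 9.33, 9.31, 9.39, 9.51 and 9.42 at 18 h, and the highest 6 h array lay level with the lowest 18 h array. It rose by 0.25 ± 0.064 (adjusted p = 0.014). The adhesion molecules Vcam1 and Icam1 rose by 0.55 ± 0.14 and 0.34 ± 0.065. Il1b (0.26 ± 0.24), Il6 (-0.03 ± 0.31) and Nos2 (0.29 ± 0.29) did not pass. Ccl2, a monocyte attractant, was the 1 of 33 chemokine and receptor genes to pass (0.55 ± 0.16), and its call was lost without 6 h arrays 1, 3 or 4 or 18 h arrays 1, 4 or 5. For the phagocyte oxidase the subunits Ncf4 (0.29 ± 0.062) and Cyba (0.19 ± 0.055) rose and the catalytic subunit Cybb read 0.49 ± 0.23 without passing. The call of Cyba was lost without 6 h arrays 1, 3 or 5 or 18 h array 4, which left 1 passing member of the list. Cd274, the checkpoint ligand PD-L1, read 0.30 ± 0.13 and did not pass.

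**Figure D3:**
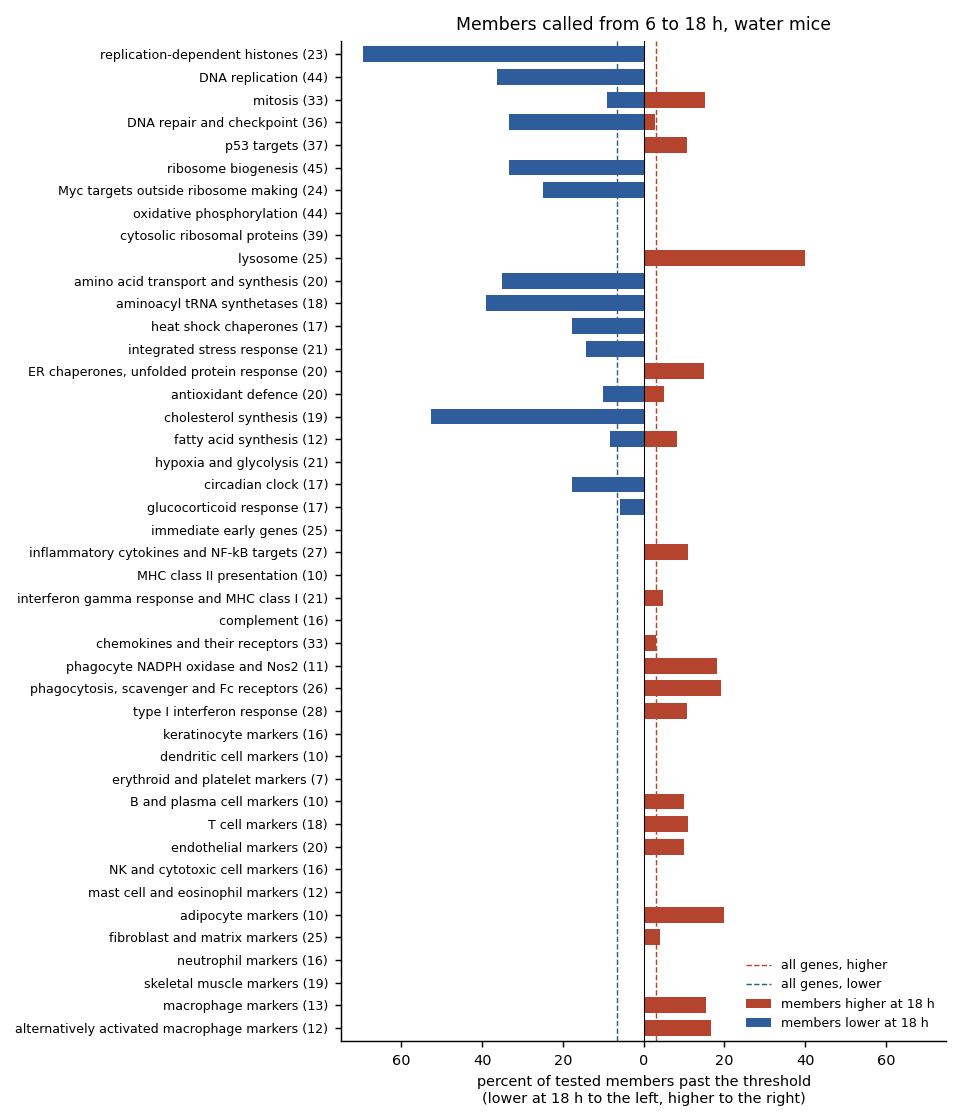
Bars give the percent of tested members of 44 gene lists that passed as lower (blue, to the left) or higher (red, to the right) at 18 h against 6 h in water mice, with the number tested in brackets and dashed lines at 6.46% and 3.12%, the shares of all genes. Replication-dependent histones (16 of 23) and cholesterol synthesis (10 of 19) have the longest blue bars and lysosome (10 of 25) the longest red one.

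For markers of other cells, the counts are read against 3.12% of all genes higher and 6.46% lower. Of 18 T cell markers 2 rose, Cd4 and Cd3d (0.20 ± 0.050), and since EL4 cells are T cells the list does not separate tumour from host. Cd4, the coreceptor, read 8.35, 8.61, 8.36, 8.64 and 8.55 at 6 h and 8.94, 9.11, 9.02, 9.13 and 8.82 at 18 h and rose by 0.50 ± 0.095 (adjusted p = 0.0019), with the groups apart. Cd3e read 0.11 ± 0.046 and did not pass. Of 10 B and plasma cell markers Cd79b, part of the B cell receptor complex, rose (0.44 ± 0.071), of 20 endothelial markers Eng and Vwf (0.39 ± 0.11 and 0.23 ± 0.070), of 25 fibroblast and matrix markers Mmp2 (0.48 ± 0.15) and of 10 adipocyte markers Fabp4 and Pparg (0.48 ± 0.13 and 0.32 ± 0.10). The calls of Vwf, Mmp2 and Pparg were lost without 7 or 8 of the 10 arrays in turn, that of Eng without 6 h arrays 3 or 5 or 18 h array 1 and that of Fabp4 without 6 h array 2. The endothelial count was 0 without 6 h array 3 or 18 h array 1, and the adipocyte count was 0 without 6 h array 2. Keratinocyte (16), skeletal muscle (19), NK and cytotoxic cell (16), mast cell and eosinophil (12) and erythroid and platelet (7) markers had 0 passing members by limma. At an unadjusted p under 0.05, in the same order, 0, 1, 1, 4 and 2 were higher and 0 lower. The largest difference among the skin genes was Krt14 (-0.94 ± 0.53, adjusted p = 0.28), which was -0.27 without 6 h array 1. The part of skin and muscle in any gene's value was not tested.

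A few stress and daily rhythm genes passed, where 6.46% of all genes passed as lower and 3.12% as higher. Of 17 heat shock chaperones 3 fell, Hsph1 (-0.30 ± 0.061), Stip1 (-0.15 ± 0.040) and Hsp90aa1 (-0.11 ± 0.034), and the count was 1 without 6 h array 4 or 18 h arrays 1 or 3 and 2 without 6 h arrays 1, 3 or 5 or 18 h array 4. Of 20 genes for endoplasmic reticulum chaperones and the unfolded protein response 3 rose, Atf6 (0.21 ± 0.046), Syvn1 (0.16 ± 0.051) and Xbp1 (0.16 ± 0.049), with a count of 1 or 2 without any 1 array and a list median of 0.01 that turns to -0.03 after subtracting array medians. Of 17 clock genes 3 fell, the nuclear receptors Nr1d2 (-0.39 ± 0.067) and Nr1d1 (-0.31 ± 0.061) and the activator Clock (-0.16 ± 0.044), the last lost without 6 h array 1 or 18 h arrays 1 or 2. The sources used here do not give the clock hour of collection. Fkbp5, a target of the glucocorticoid receptor, fell by 0.22 ± 0.047, the 1 of 17 on its list. Of 20 antioxidant genes Gpx1, a peroxidase, rose (0.33 ± 0.060) and Gclc and Txnrd1 fell (-0.19 ± 0.054 and -0.13 ± 0.038), and the count of falling members was 0 without 6 h arrays 2 or 5 or 18 h arrays 1 or 3 and 1 without 6 h array 1. Immediate early genes (25), hypoxia and glycolysis (21), complement (16) and MHC class II genes (10) had 0 passing members. At an unadjusted p under 0.05, in the same order, 0, 1, 3 and 4 were higher, and 1 hypoxia gene was lower. Fos, an immediate early gene, read -0.06 ± 0.15 after 0.88 ± 0.15 from 0 to 6 h. Of 21 genes of the interferon gamma response and MHC class I, Tapbp, which loads peptides, rose (0.26 ± 0.080), a call lost without 6 h arrays 1, 3, 4 or 5 or 18 h arrays 1, 2 or 4.

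Other large rises were in genes of no list. They were 1700007K13Rik (0.93 ± 0.15), Ly6a2 (0.83 ± 0.21), Lipg, endothelial lipase (0.68 ± 0.16), D5Ertd615e (0.68 ± 0.16), Acy3, an aminoacylase (0.66 ± 0.093), Ankk1 (0.65 ± 0.16), Sfrp2, a secreted Wnt antagonist (0.64 ± 0.20), and Cyp4f18, a cytochrome P450 (0.62 ± 0.16). All of them kept their calls without each of the 10 arrays except Sfrp2, which kept it in 2 of 10. Rasl11a, a small GTPase of the Ras family, had the smallest p of the rising genes (0.58 ± 0.067, adjusted p = 2.6e-05), after a drop of -0.38 ± 0.067 from 0 to 6 h. Among the largest falls was also the pseudogene Olfr1372-ps1 (-0.79 ± 0.25), which kept its call in 2 of 10.

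The same interval in antibiotic mice, which shares no array with the water mice, gave fewer passing genes. There 422 genes passed (2.12%), 245 higher (1.23%) and 177 lower (0.888%). With these 2 groups fitted alone 0 passed by limma (2148 at an unadjusted p under 0.05), and without any 1 of the 10 arrays between 105 and 721 did, so every call in antibiotic mice given here rests on the fit of all 30 arrays. Of the 1910 genes that passed in water mice 986 (51.6%) had the same direction in antibiotic mice, where 48.0% of all genes had the same direction in both. The 1910 were chosen for their change in water mice. Of the 245 higher calls in antibiotic mice 37 were also higher calls in water mice (15.1%, or 5.94% of the 623), and of the 177 lower calls 37 were also lower calls in water mice (20.9%, or 2.88% of the 1287). A further 21 genes passed in opposite directions. The difference between the arms was tested with limma's interaction contrast, the change in water mice minus the change in antibiotic mice. It passed for 1058 genes (5.31%), 864 with a more negative change in water mice (4.33%) and 194 with a more positive one (0.973%).

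The antibiotic 6 h arrays lay further apart than the water 6 h arrays. The mean of the genes that passed as lower in water mice was -0.108, -0.015 and -0.059 on antibiotic 6 h arrays 3, 4 and 5, and 0.081 and 0.072 on arrays 1 and 2, relative to the mean of all 30 arrays, where the water 6 h arrays lay between 0.022 and 0.098. Keratinocyte markers averaged between -0.063 and 1.519 on the antibiotic 6 h arrays, and muscle markers reached 1.527 on array 5. The number of interaction calls was between 511 and 1538 without any 1 of the 20 arrays. It was lowest without water 6 h arrays 1, 4 or 5 (705, 691 and 596), antibiotic 6 h arrays 3 or 4 (597 and 641), water 18 h arrays 1 or 3 (511 and 512) or antibiotic 18 h arrays 1 or 4 (678 and 575), and 573 with the 4 groups fitted alone. The part of these differences in the interaction was not tested.

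Cholesterol synthesis and chromosome maintenance were among the groups in which the arms differed most often. Of 19 cholesterol genes 10 passed the interaction as more negative in water mice, against 4.33% of all genes, with medians of -0.23 in water and 0.14 in antibiotic mice. That count was between 8 and 12 without any 1 array. Insig1 read 9.86, 10.01, 9.80, 9.70 and 10.04 at 6 h and 10.34, 9.81, 10.03, 10.03 and 10.01 at 18 h in antibiotic mice, where it did not pass (0.16 ± 0.085), and the difference between the arms was -0.74 ± 0.12 (adjusted p = 0.0033). For Hmgcs1 it was -0.49 ± 0.11 (adjusted p = 0.011). Of 36 repair genes 12 passed as more negative in water mice and 1 as more positive, and the first count was 6 without water 6 h array 5, antibiotic 6 h array 3, water 18 h array 1 or water 18 h array 3. Brca1 read 8.84, 8.91, 8.54, 8.78 and 8.62 at 6 h and 8.96, 8.85, 8.79, 8.90 and 8.92 at 18 h in antibiotic mice, and the difference between the arms was -0.49 ± 0.095 (adjusted p = 0.0054). All but 1 of the 7 Smc genes passed the interaction. Smc2 read 10.33, 10.32, 10.21, 10.19 and 10.25 at 6 h and 10.49, 10.44, 10.46, 10.54 and 10.41 at 18 h in antibiotic mice, where it rose by 0.21 ± 0.045 (adjusted p = 0.019), and the difference was -0.50 ± 0.064 (adjusted p = 0.00033). The interaction values of Stag1 (-0.50 ± 0.078), Rad54b (-0.53 ± 0.078) and Slc39a10 (-0.84 ± 0.12) were also among the 6 with the smallest p. Slc39a11, another zinc transporter (0.31 ± 0.050), and Lgals12, a galectin (0.53 ± 0.085), completed the 6 as more positive in water mice. Of 17 heat shock chaperones 6 passed as more negative in water mice, Hsph1 by -0.50 ± 0.087, a count that was 3 at its lowest without 1 array.

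**Figure D4:**
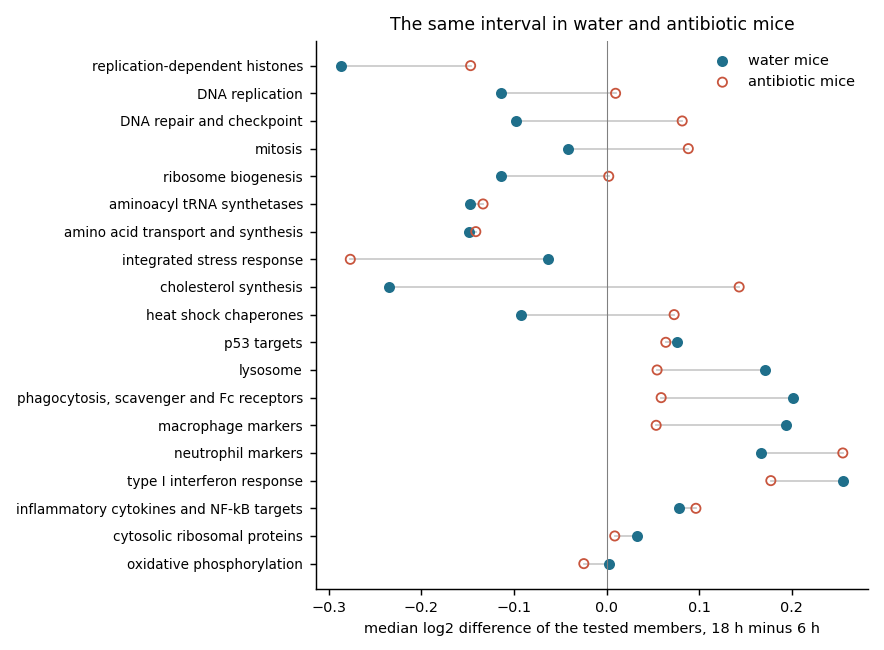
For 19 gene lists the horizontal axis gives the median log2 difference of the tested members between 18 and 6 h, in water mice (filled) and in antibiotic mice (open). Cholesterol synthesis lies at -0.23 in water and 0.14 in antibiotic mice, while amino acid transport and synthesis (-0.15 and -0.14) and aminoacyl tRNA synthetases (-0.15 and -0.13) lie close together.

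For the histone and amino acid lists the interaction passed for few or no members. Of all genes 5.31% passed it, 4.33% as more negative and 0.973% as more positive in water mice. Counts this small in short lists do not show that the arms were alike. Of 23 histone genes 0 passed it by limma (2 at an unadjusted p under 0.05), with medians of -0.29 in water and -0.15 in antibiotic mice, and H2bc3 read 10.64, 10.54, 10.69, 10.59 and 10.36 at 6 h and 10.42, 10.05, 9.88, 10.40 and 9.85 at 18 h in antibiotic mice. H2bc3 fell there too (-0.44 ± 0.094, adjusted p = 0.015). The difference between the arms for H2bc3 was -0.13 ± 0.13, whose error leaves room for no difference as well as for a sizeably larger fall in water mice. Of 20 amino acid transport and synthesis genes 0 passed it (1 unadjusted), with medians of -0.15 and -0.14, and of 18 tRNA synthetases 1 passed, Iars (-0.25 ± 0.073, adjusted p = 0.041), a call lost without 13 of the 20 arrays in turn. Slc1a4 fell in antibiotic mice (-0.56 ± 0.097, adjusted p = 0.003), and the difference between the arms was 0.02 ± 0.14. Slc6a9 and Chac1 changed by -0.92 ± 0.13 and -0.87 ± 0.17 there, both passing, from levels at 6 h of 10.60 ± 0.34 (SD, n = 5) and 9.56 ± 0.42 (SD, n = 5) that lay above those of water mice. Of 37 p53 targets 2 passed the interaction, Phlda3 (0.56 ± 0.14) and Abhd4 (0.40 ± 0.071), both more positive in water mice. Of 25 lysosomal genes 1 passed, Atp6v0d1 (0.36 ± 0.066), and Gpnmb read 8.64, 8.79, 8.44, 9.11 and 8.35 at 6 h and 8.40, 8.29, 8.49, 8.59 and 8.78 at 18 h in antibiotic mice, with a difference between the arms of 0.88 ± 0.23 (adjusted p = 0.024). The Gpnmb call was lost without water 6 h arrays 4 or 5, antibiotic 6 h array 4 or water 18 h array 1.

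**Figure D5:**
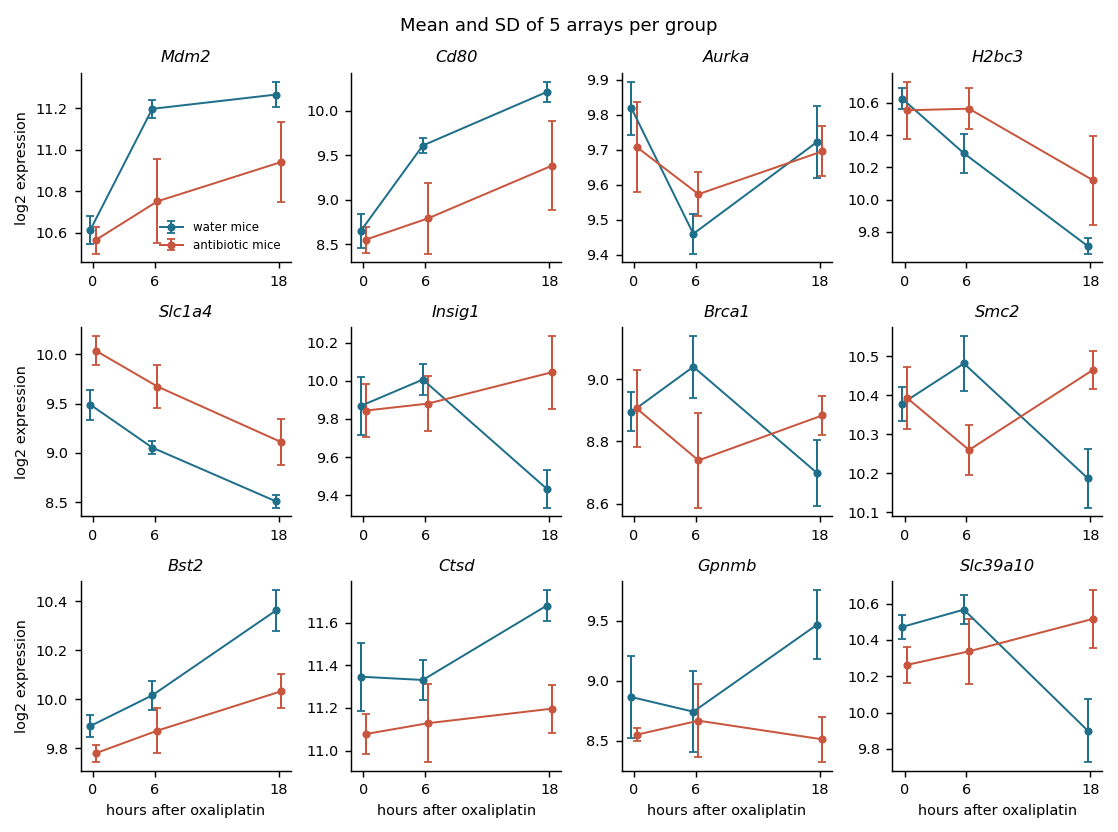
Each panel gives the mean log2 expression and SD of 5 arrays at 0, 6 and 18 h after oxaliplatin for 1 of 12 genes, in water mice (blue) and antibiotic mice (red). Slc1a4 and H2bc3 were lower at 18 h than at 6 h in both arms, Insig1, Brca1, Smc2 and Slc39a10 passed as lower at 18 h in water mice and not in antibiotic mice, and the scales of the panels differ.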

How the data were processed

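Tumour RNA was hybridised to Affymetrix mouse gene arrays, 300 ng of total RNA per sample, per the labels' protocols. The authors deposited log2 values, and Partek 6.6 is listed in the submitters' processing notes without its role. Summarisation, normalisation and array build are not given in the sources used here. Of 28853 rows, 21775 had 1 gene symbol, 1578 several and 5500 none, and only the first kind was named. A gene with several rows kept the row with the highest mean over all 30 arrays, which left 19938 genes. Groups came from the sample titles. limma 3.58.1 (R 4.3.3) fitted 6 group means on all 30 arrays with eBayes, and Benjamini-Hochberg adjustment ran over all 19938 genes at 0.05. The script was tested on simulated data.

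The members and gene lists were chosen with earlier results of these data known. Named genes were the 12 largest rises and 12 largest falls among passing genes, up to 4 passing members with the smallest p of each of 44 function and marker lists in each direction, 28 genes named whether they passed or not, the 6 smallest interaction p-values, and the largest difference of a list without a passing member. Other genes and list members in the text, and the families named Smc, Zfp, Mir and Atp6, were chosen after their values were seen. Of 1037 listed genes 920 were tested, and Cdkn1a, Bax and Gdf15 were not analysed here. Alternatives were array medians subtracted, quantile normalization, a filter on genes with low means, row means, another variance prior, array weights, a minimum fold change, the compared groups alone, and each array left out. The number of arrays limits the precision.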

Additional observations from a re-analysis of the deposited data

Results flagged for a closer look

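Single arrays stood apart from the other 4 of their group in 5 of 62 sets of 5 arrays examined, by Dixon's 95% critical value for the gap of the extreme array over the range, which chance passes in about 1 in 20 groups. H2ac4 read 8.41 on water 6 h array 3, below the other 6 h arrays. Atf4 read 9.56 on water 6 h array 1, above the others by a margin smaller than the difference between the times. Cd68 read 10.25 on water 18 h array 2, near the 6 h level, and Chil3 read 6.65 on water 6 h array 5, near the 18 h level. The mean of the keratinocyte markers was 0.33 on water 18 h array 4, above the other 18 h arrays.

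The change from 6 to 18 h differed between water and antibiotic mice for 1058 genes by limma's interaction contrast. Among 27 genes shown by array, 8 were of this kind. In log2 units, water minus antibiotic mice, the difference was -0.84 for Slc39a10, -0.74 for Insig1, -0.50 for Smc2, -0.49 for Brca1, -0.49 for Hmgcs1, -0.30 for Cdc6 and -0.25 for Iars, and 0.88 for Gpnmb. The calls of Cdc6 and Iars were lost without 14 and 13 of the 20 arrays in turn, and that of Gpnmb without 4.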

How the results depend on the processing

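For the count of genes that passed in water mice (1910), array weights gave 3565, and a test against a minimum change of 1.5-fold gave 0 (limma, 1 at an unadjusted p under 0.05). Leaving out 1 array gave between 1072 and 2060, and the other alternatives gave between 1887 and 2321. For antibiotic mice (422), subtracting array medians gave 228, quantile normalization 681, the minimum change 0 (4 unadjusted) and the 2 groups alone 0 (2148 unadjusted), with 105 to 721 when 1 array was left out. For the interaction (1058), the minimum change gave 0 (4 unadjusted) and the 4 groups alone 573, with 511 to 1538 when 1 array was left out. Of 129 named genes that passed, 83 kept their call without each of the 10 arrays, 121 kept it with array medians subtracted, 126 with quantile normalization and 121 with the 2 groups alone, and 0 changed sign. Fos and Il6, which did not pass, changed sign: leaving out 1 array moved Fos between -0.19 and 0.079 (positive without water 6 h array 1 or 2) and Il6 between -0.23 and 0.21 (positive without water 6 h array 1 or 2 or 18 h array 1). The median of all genes was 0.0218, -0.0112 with array medians subtracted and 0.0021 with quantile normalization, and the list medians of oxidative phosphorylation, endoplasmic reticulum chaperones, hypoxia and antioxidant genes changed sign between these. No paired analysis was possible because the sample numbers in the labels run through all 30 samples and are shared by no groups. The cause of these shifts was not tested.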

Other observations

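Small nucleolar RNA genes and mitochondrial ribosomal protein genes, grouped after their values were seen, had shares of lower members near that of all genes (6.46%) between 6 and 18 h in water mice. Of 52 genes named Snor 4 passed as lower (7.69%) and 1 as higher, with a median of -0.11, and the lower count was 1 without 18 h array 3 and 10 without 18 h array 4 or 5. Of 77 genes named Mrpl or Mrps 6 passed as lower (7.79%) and 1 as higher, with a median of -0.05. That lower count was 1 without 6 h arrays 1, 4 or 5 or 18 h array 1 and 9 without 18 h array 4. Genes of the integrated stress response had a median of -0.28 in antibiotic mice and -0.06 in water mice. In antibiotic mice 8 of 21 passed as lower, where 0.888% of all genes did. The interaction passed for 1 of the 21 (4.76%), as more positive in water mice. Of all genes 5.31% passed it, 0.973% in that direction. For the other 20 members no difference between the arms was called.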
